A study of Mus musculus with 6 samples.

Results

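The 10 genes described here mark the contractile and matrix-producing cells around the seminiferous tubules, and they were followed in 6 maps of open chromatin from neonatal mouse testis. They were picked by name, with earlier results of these data known, though no measured value enters the rule. Acta2, Myh11, Cnn1, Tagln and Des belong to the contractile apparatus. Pdgfra, Col1a1, Col1a2, Dcn and Lum belong to the stroma and its extracellular matrix. The group is 10 of 21440 protein-coding genes for which a 5′ end could be placed. For each gene, every peak between 10 kb upstream of the 5′ end and 10 kb past the 3′ end was taken, and a peak within 3 kb of the 5′ end was counted as a promoter peak. A second, narrower count used 1 kb.

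ATAC-seq, in which the transposase Tn5 inserts adapters into accessible DNA, was run on spermatogonia-enriched suspensions of postnatal day 5 mouse testes, with both genotypes on the same inbred background. S7KO animals lacked the histone deacetylase SIRT7 in every cell (Sirt7-/-, n = 3 libraries, replicates 1, 2 and 4), and WT animals were the controls (n = 3 libraries, also numbered 1, 2 and 4). The comparison asks whether chromatin accessibility depends on SIRT7. Testis cords were freed from interstitial cells by digestion, and somatic cells were depleted by letting them attach to a dish. The enrichment was followed by flow cytometry of the spermatogonial protein PLZF. The paper reports that most isolated cells carried PLZF, shown for WT cells, and each suspension may still hold somatic cells. The deposited lists hold 105728 to 133663 peaks per library on the autosomes, X and Y, with the shortest list in WT replicate 2. The background coverage implied by the fold enrichments and p-values of narrow peaks was 2.92 in WT replicate 2. It was 4.72 to 6.03 in the other libraries. These values rest on an assumed Poisson model and are not a measured depth. The promoter of Sirt7 itself had a peak in all 6 libraries, which does not test the deletion. No read counts were analysed here, so depth in reads is unknown.

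Peritubular myoid cells are smooth-muscle-like cells that wrap the tubule and move its content. Their contractile genes are classically controlled by serum response factor and myocardin through a short A/T-rich element, the CArG box. The stromal genes encode the receptor for platelet-derived growth factor, the chains of type I collagen and small leucine-rich proteoglycans that organise collagen fibrils. They serve as markers of somatic cells rather than of germ cells. A peak in a bulk library shows that some cells were open there, and a smaller share of open cells cannot be told apart from less opening per cell.

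RefSeq promoter sequences on GRCm38.p6, 250 bases before to 50 after a start site, were at hand for Acta2, Cnn1, Des, Pdgfra and Col1a2. Those of Acta2, Col1a2 and Pdgfra are shown because they differ in the peaks above them or hold a near match to the CArG box. Capitals mark a CArG box with 1 base other than A or T in its core, and the Pdgfra sequence has none.

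Acta2, chr19:34255324-34255623, minus strand: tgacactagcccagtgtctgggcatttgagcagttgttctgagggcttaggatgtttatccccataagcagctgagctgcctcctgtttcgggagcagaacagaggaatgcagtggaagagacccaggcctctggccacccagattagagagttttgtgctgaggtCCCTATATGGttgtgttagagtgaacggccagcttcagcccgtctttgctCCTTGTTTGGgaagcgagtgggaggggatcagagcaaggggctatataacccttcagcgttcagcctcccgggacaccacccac

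Col1a2, chr6:4505368-4505667, plus strand: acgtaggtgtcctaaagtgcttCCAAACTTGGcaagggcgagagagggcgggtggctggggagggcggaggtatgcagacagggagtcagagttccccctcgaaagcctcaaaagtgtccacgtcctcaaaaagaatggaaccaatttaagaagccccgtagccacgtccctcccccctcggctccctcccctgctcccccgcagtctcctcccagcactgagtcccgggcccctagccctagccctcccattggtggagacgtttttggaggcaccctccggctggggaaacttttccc

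Pdgfra, chr5:75152001-75152300, plus strand: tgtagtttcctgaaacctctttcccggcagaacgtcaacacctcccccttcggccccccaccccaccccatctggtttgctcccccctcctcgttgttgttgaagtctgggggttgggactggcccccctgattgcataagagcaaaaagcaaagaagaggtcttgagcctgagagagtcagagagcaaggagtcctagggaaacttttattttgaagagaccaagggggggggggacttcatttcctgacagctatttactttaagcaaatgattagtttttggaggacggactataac

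The Acta2 sequence holds near matches from -84 to -75 and from -34 to -25 of its start site, and the Col1a2 sequence holds one from -228 to -219. The start site of the Acta2 sequence lies 212 bp inside the gene model, so both of its near matches lie inside the gene as placed here. Such a near match was found in 8.50% of 32851 RefSeq promoters, and an exact CArG box, found in 1.63%, was in none of the 5 member promoters. TATAAA, present in 13.6% of promoters, was in none of the 5 either. The GC-box letters GGGCGG, present in 35.7% of promoters, occurred at 2 positions in Des and 2 in Col1a2. The letters CCAAT, present in 37.4%, occurred in Col1a2 and Cnn1. Both strands were searched, and a match is a description of the letters only.

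In all 5 promoters the ratio of observed to expected CpG was below 0.6, as it was up to 0.6 in 21095 of 32851 promoters. It was 0.344 in Des, 0.256 in Pdgfra, 0.470 in Col1a2, 0.239 in Cnn1 and 0.270 in Acta2. The median over all promoters was 0.384, which Col1a2 exceeded. Among promoters with a ratio up to 0.6, 24.8% had at least 50% of their bases in peaks in all 6 libraries, compared with 93.1% of those above 0.6. The Acta2, Des and Col1a2 sequences were entirely inside peaks in all 6 libraries, which is 3 of the 5. Cnn1 passed 50% in 5 libraries and reached 26.7% in S7KO replicate 1. The Pdgfra sequence, whose start site lies 929 bp inside the gene model, had no base in a peak in any library.

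All 5 contractile genes had a promoter peak in all 6 libraries, as did 4 of the 5 matrix genes. The exception was Lum, with a promoter peak in 5 libraries and none in WT replicate 2. That made 9 of 10 genes with a call everywhere, beside a background of 74.0% of all protein-coding genes. Within 1 kb it was again 9 of 10, beside 68.2%, and Lum was called in 4 libraries. A peak over the 5′ end itself was called in all 6 libraries for 6 of 10 genes, beside 59.7%, so there the group equalled the background. Peak strength was read as the list rank, the position of a peak by its q-value within its own library, in percent, where 0 is the strongest and 100 the weakest. The rank places a peak within its own list and is not an amount of accessibility. It does not remove differences in list length: the median promoter rank of all protein-coding genes was 18.4 in WT replicate 2, with the shortest list, and 13.6 in WT replicate 4, with the longest.

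**Figure D1:**
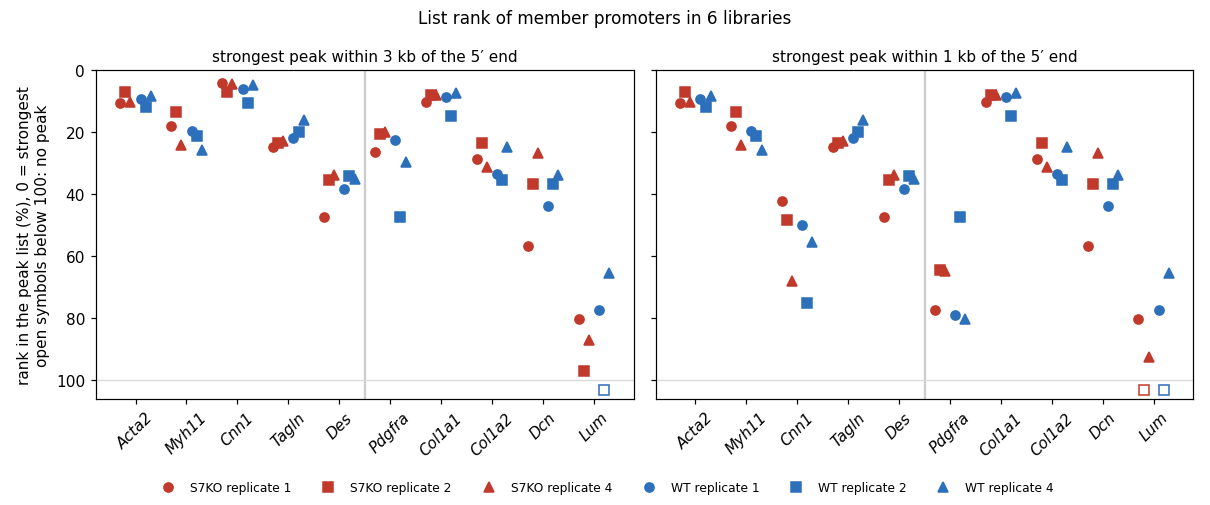
List rank of the strongest peak within 3 kb (left) and 1 kb (right) of the 5′ end of each gene, in percent with 0 at the top as the strongest, for 3 S7KO (red) and 3 WT (blue) libraries; open symbols mark libraries without a peak. Acta2 and Col1a1 sit near the top in all 6 libraries, Lum sits lowest on the left, and Cnn1 and Pdgfra drop when the promoter is narrowed, Pdgfra to below Lum in WT replicates 1 and 4.

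Acta2 (chr19:34240336-34255585, minus strand), which encodes smooth muscle α-actin, had one of the strongest promoters of the group. Its ranks were 10.7, 7.23 and 10.4 in S7KO replicates 1, 2 and 4 and 9.55, 12.0 and 8.36 in WT replicates 1, 2 and 4. The groups overlapped, and the fold enrichment of this peak was 4.59 to 4.78 over all 6 libraries. The merged region ran from -442 to 1345 bp of the 5′ end. A region inside the gene, at 10241 to 11648 bp, and regions at 3921 and 7273 bp past the 3′ end, inside the gene body of Stambpl1, were also called in all 6 libraries.

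Myh11 (chr16:14194527-14292188, minus strand) encodes the smooth muscle myosin heavy chain and had the most regions of the group. Of its 14 regions, 8 were called in all 6 libraries, and 7 of these 8 lay inside the gene away from the promoter. Promoter ranks were 18.2, 13.7 and 24.1 in S7KO and 19.7, 21.4 and 25.7 in WT. The promoter region was broad, at 3977 bp, and the 2 genotypes overlapped. The internal region at 69907 to 71176 bp came next, with a median rank of 25.2 (range 16.4 to 37.7).

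Cnn1 (chr9:22099221-22109221, plus strand), encoding calponin, was strong a short way upstream and weak at its own 5′ end. The region from -3419 to -2748 bp ranked 4.42, 7.09 and 4.65 in S7KO and 6.28, 10.6 and 4.97 in WT. At the 5′ end, the peak ranked 42.2, 48.2 and 68.1 in S7KO and 49.95, 75.1 and 55.6 in WT. Neither region separated the genotypes. The strongest region of the window, with a median rank of 4.12, lay 17032 to 19068 bp downstream over the 5′ end of Elof1, the gene of a transcription elongation factor, which had a peak within 1 kb in all 6 libraries.

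Tagln (chr9:45929628-45936058, minus strand) encodes transgelin, an actin-binding protein of smooth muscle. Its promoter ranks were 24.9, 23.6 and 22.8 in S7KO and 22.0, 20.1 and 16.0 in WT, so that every S7KO library was weaker in rank than any WT library. The fold enrichments were 3.30, 3.35 and 3.48 in S7KO against 3.60, 4.08 and 4.14 in WT. The peak over the 5′ end was 1764, 1764 and 1772 bp wide in S7KO and 1768, 1439 and 1457 bp wide in WT. The other region, at 14399 to 16132 bp in the gene body of Pcsk7, had a median rank of 72.9.

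Des (chr1:75360292-75368579, plus strand) encodes desmin, the muscle intermediate filament. Promoter ranks were 47.4, 35.4 and 33.7 in S7KO and 38.5, 34.1 and 35.2 in WT, and S7KO replicate 1 was the weakest library. A region 9016 to 11374 bp from the 5′ end, which began 729 bp past the 3′ end, had a median rank of 29.5 against 35.3 at the promoter. The third region, at 14632 to 15792 bp, lies at the 5′ ends of Speg, a striated muscle kinase gene, and of the long non-coding RNA Gm15179, both with a peak within 1 kb in all 6 libraries.

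**Figure D2:**
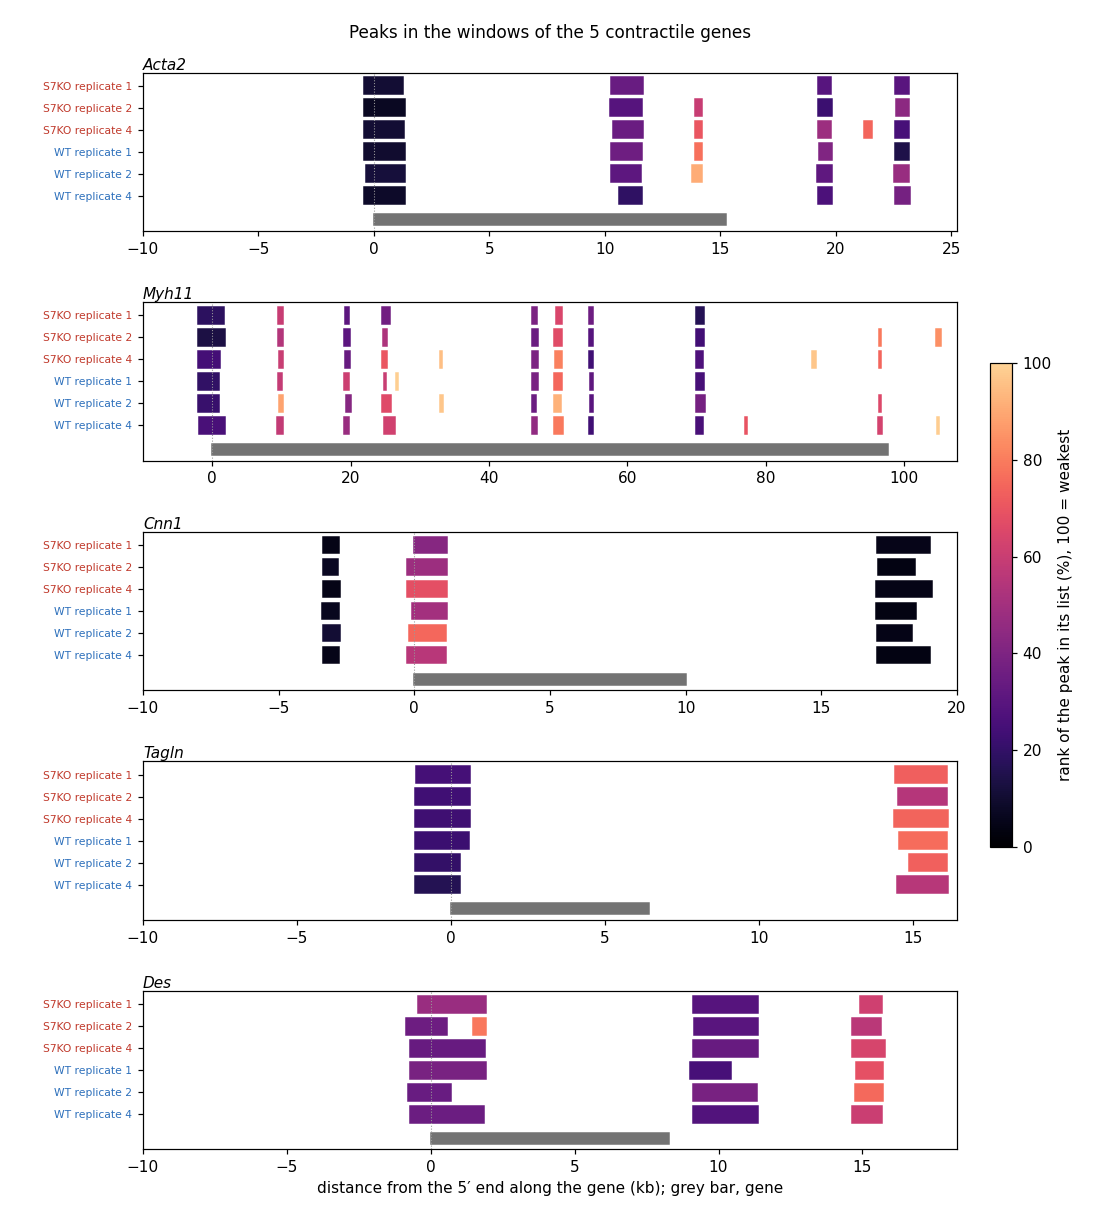
Peaks in the windows of the 5 contractile genes by distance from the 5′ end in kb, with 1 row per library (red labels S7KO, blue labels WT) and the gene as a grey bar; darker peaks have a stronger list rank. The same positions recur in all 6 rows at most sites, and the regions called in a single library had list ranks from 69.3 to 99.1.

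Among the matrix genes, Col1a1 (chr11:94936224-94953042, plus strand) had the strongest promoter. This gene of the α1 chain of type I collagen ranked 10.4, 8.23 and 8.27 in S7KO and 8.87, 14.8 and 7.53 in WT. WT replicate 2 was the weakest library and the genotypes overlapped. A region 4396 bp past the 3′ end had a median rank of 11.6 (range 9.22 to 18.4), and one from -8535 to -6581 bp, over the body of the long non-coding RNA Gm46293, had 16.4 (range 12.7 to 18.7). The 5′ end of Gm46293 itself, at -1608 bp from that of Col1a1, had no peak within 1 kb in any library.

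Col1a2 (chr6:4505618-4541543, plus strand), the gene of the α2 chain, had a weaker promoter than its partner in every library. The ranks were 28.6, 23.5 and 31.3 in S7KO and 33.7, 35.5 and 25.0 in WT, and they overlapped. Its strongest region lay 2918 bp past the 3′ end, with a median rank of 22.8 (range 17.6 to 25.9). Both collagen genes thus had a region beyond the 3′ end called in all 6 libraries.

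Pdgfra (chr5:75151322-75198206, plus strand) encodes the platelet-derived growth factor receptor α of mesenchymal cells. Its promoter peaks flanked the 5′ end, and a single library, WT replicate 4, had a peak over the end itself. Within 3 kb the ranks were 26.5, 20.7 and 19.9 in S7KO and 22.8, 47.3 and 29.6 in WT. Within 1 kb they were 77.3, 64.5 and 64.7 in S7KO and 79.0, 47.3 and 80.1 in WT. WT replicate 2 had 1 joined peak upstream where the other libraries had separate ones. The strongest regions were at 42897 to 44213 bp inside the gene, with a median rank of 11.5, and at -8437 to -7392 bp, with a median rank of 14.5.

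Dcn (chr10:97479500-97518163, plus strand) and Lum (chr10:97565501-97572703, plus strand) encode decorin and lumican, proteoglycans that bind collagen. Dcn promoter ranks were 56.7, 36.7 and 26.8 in S7KO and 43.8, 36.8 and 33.9 in WT. The S7KO libraries spanned the WT range on both sides. A region at 18303 to 18841 bp inside Dcn had a median rank of 35.9, beside 36.8 at the promoter. Peaks covered 1.76% to 2.79% of the Dcn window, compared with a median of 6.92% over all protein-coding genes.

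Lum had the weakest promoter of the 10 genes within 3 kb. Its ranks there were 80.1, 97.0 and 87.1 in S7KO and 77.5 and 65.4 in WT replicates 1 and 4. There was no peak in WT replicate 2, the library with the shortest list. The peak at the 5′ end was missing from S7KO replicate 2 as well. The one region of Lum called in all 6 libraries lay upstream, from -9165 to -8492 bp, with a median rank of 35.9.

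**Figure D3:**
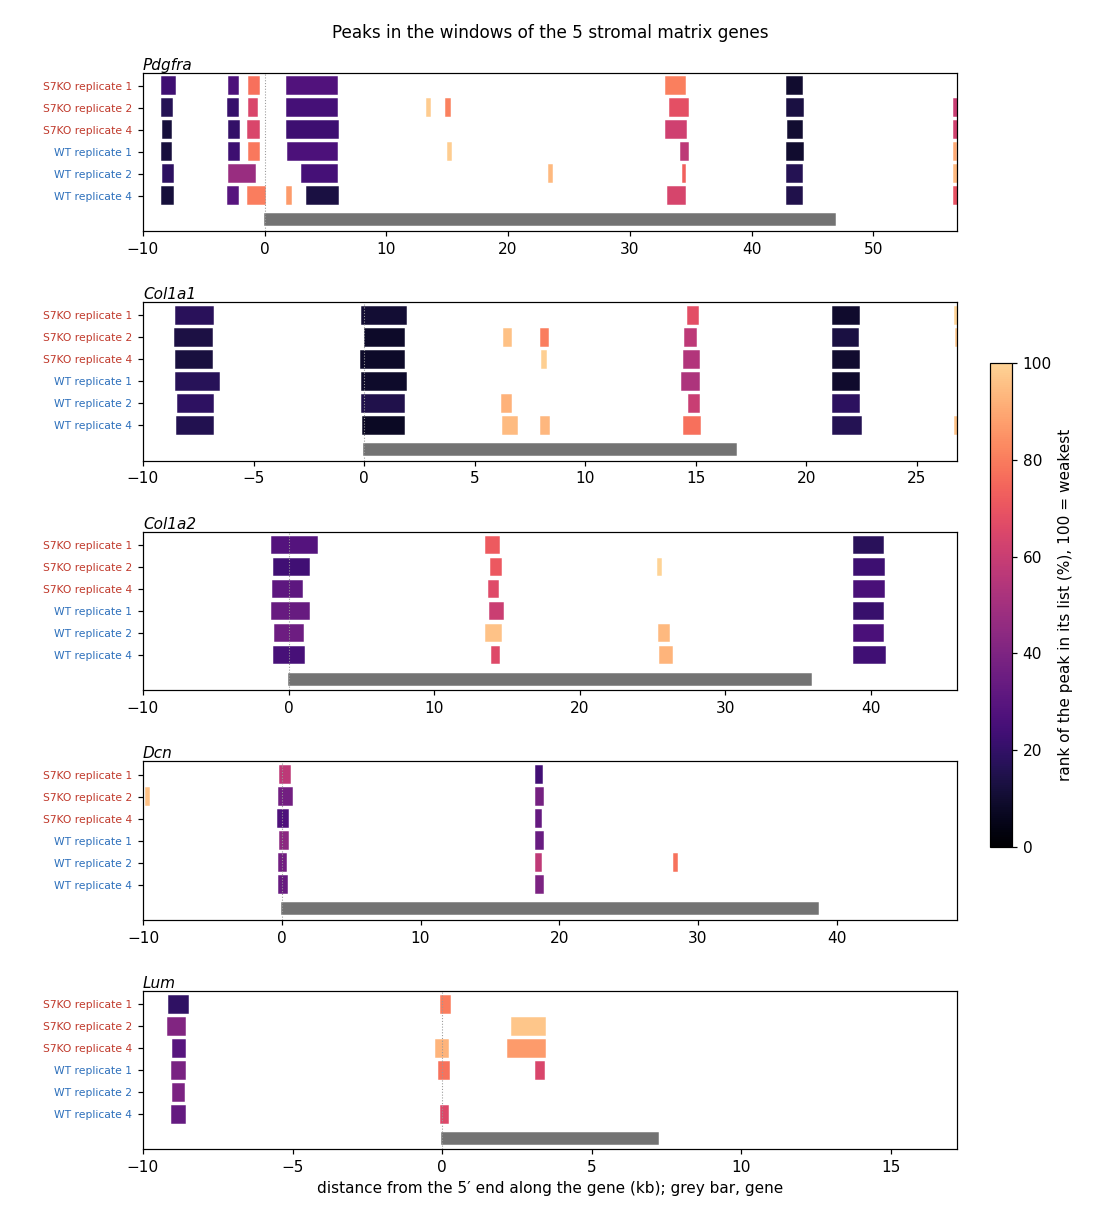
Peaks in the windows of the 5 stromal matrix genes, drawn by distance from the 5′ end in kb with 1 row per library and list rank as shade (darker is stronger). Dark peaks beyond the 3′ ends of Col1a1 and Col1a2 and inside Pdgfra recur in all 6 rows, whereas the Lum promoter is pale or missing.

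In 6 of the 10 windows, those of Cnn1, Des, Pdgfra, Col1a2, Dcn and Lum, the best median rank belonged to a region more than 1 kb from the 5′ end. The same was true of 47.7% of 18512 windows of protein-coding genes with a region, and the margin was narrow for Dcn. Merging the peaks of all libraries gave 55 regions in the windows, of 158725 in the genome. Of these, 35 (63.6%) were called in all 6 libraries, compared with 58.5% of regions at all protein-coding genes. The contractile windows had 20 of 28 regions in all 6 libraries and the matrix windows 15 of 27. Regions called in all 6 libraries had a median width of 1317 bp and a median rank of 30.5, and the others 399 bp and 92.4.

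No region of these windows was particular to a genotype. The count called in all 3 S7KO and no WT library was 0 of 55, with a background of 0.383% of 102171 regions, and the count called in all 3 WT and no S7KO library was 0 of 55, with a background of 0.0793%. These background shares are so low that a count of 0 among 55 regions is no result about the genes. Of the 20 regions missing from at least 1 library, 7 were called in more S7KO than WT libraries, 7 in more WT than S7KO libraries and 6 in equal numbers. The same split was not taken over the regions at all protein-coding genes. These counts therefore have no background and are a description only.

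None of 4 measures over the 10 windows passed the test between genotypes. The windows held 38, 49 and 45 peaks in S7KO and 42, 43 and 46 in WT, which is 44 ± 5.57 against 43.7 ± 2.08 (mean ± SD, n = 3 each, exact permutation p = 1, two-sided). The sign of this difference turned without S7KO replicate 2 (-2.17), S7KO replicate 4 (-0.167) or WT replicate 1 (-0.5). Peaks covered 10.2%, 10.7% and 10.6% of the window length in S7KO and 9.66%, 9.41% and 10.7% in WT. The means were 10.5% ± 0.259 and 9.91% ± 0.657 (SD, n = 3 each, exact permutation p = 0.3), with the lowest value in WT replicate 2. This difference of 0.579 percentage points was larger than the SD of S7KO and smaller than that of WT. With lists cut to equal length, every S7KO library lay above every WT library, at 10.2%, 10.1% and 9.88% against 9.52%, 9.41% and 9.82% (difference 0.460, exact permutation p = 0.1). Median promoter ranks were 25.7, 22.1 and 23.4 in S7KO and 22.4, 27.7 and 25.4 in WT (23.7 ± 1.80 against 25.2 ± 2.66, SD, n = 3 each, exact permutation p = 0.5). The number of genes with a promoter peak was 10 in every library except WT replicate 2, which had 9 (exact permutation p = 1). Adjusted over these 4 measures every p was 1, and 3 libraries against 3 cannot give an exact permutation p below 0.1.

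**Figure D4:**
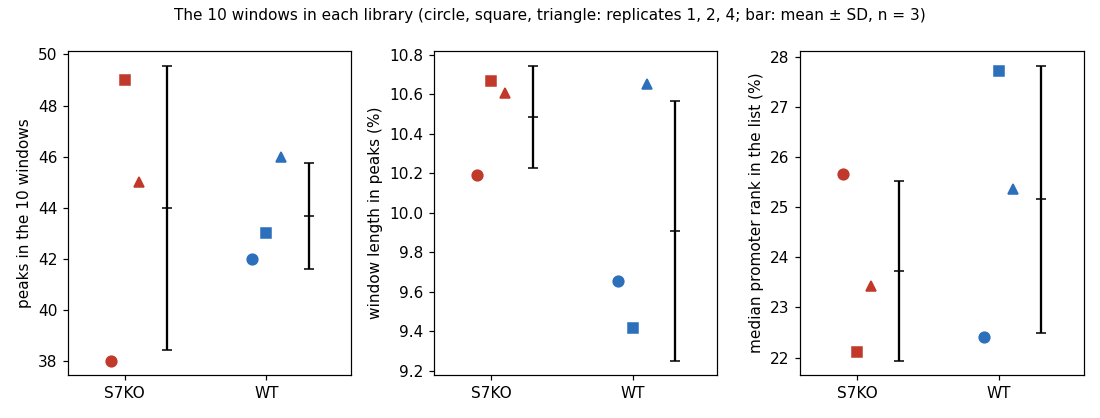
Number of peaks, percent of window length in peaks and median promoter rank over the 10 windows in each library (symbols, replicates 1, 2 and 4) with the mean ± SD of 3 libraries per genotype; axes do not start at 0. The S7KO and WT symbols overlap in all 3 panels.

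Gene by gene, 1 of the 9 promoters with a peak in all libraries had ranks that did not overlap between genotypes. This was Tagln, weaker in every S7KO library, in a direction that 1.24% of 15867 promoters showed. In either direction, 6.46% of these promoters separated. No member was stronger in every S7KO library, against 5.22% of promoters. Tagln kept its separation when each list was cut to its 105728 strongest peaks, where 4.12% of promoters were weaker and 3.05% stronger in every S7KO library. Leaving out a single library cannot undo a full separation, because ranks are computed per list, so that check adds nothing for Tagln. With any 1 of the 6 libraries left out the count was 2, and the additional gene was Pdgfra, Cnn1, Myh11, Lum or Col1a2, depending on the library, while 10.9% to 20% of all promoters separated in either direction. The share of the window in peaks, compared gene by gene after the values were seen, was larger in every S7KO library for 2 of the 10 genes, Tagln and Pdgfra, and smaller in none. Over 18512 windows with a peak, 7.36% had a larger and 0.589% a smaller share in every S7KO library. For Pdgfra the shares were 14.3%, 15.2% and 14.5% in S7KO and 12.9%, 11.7% and 13.3% in WT. For Tagln they were 13.1%, 12.8% and 13.3% in S7KO and 12.6%, 10.1% and 11.7% in WT, so Tagln had more of its window in peaks in S7KO while its promoter ranked weaker. With lists of equal length these 2 genes remained, beside 6.55% of windows, and Col1a1 had a smaller share in every S7KO library, beside 1.45%.

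Genes of the same kinds that are not among the 10 had promoter peaks in most cases. Within 1 kb of the 5′ end, 10 of 11 other smooth muscle genes had a peak in all 6 libraries. So had 15 of 16 other matrix and fibroblast genes, beside 68.2% of all protein-coding genes. Smtn and Mylk, both of the smooth muscle contractile machinery, had median ranks of 3.01 and 3.35. Fn1, fibronectin, and Col5a1, a fibrillar collagen, had 5.21 and 5.51. The median rank within 1 kb was 32.6 for the 10 genes, 11.6 for other smooth muscle genes and 16.7 for other matrix genes, beside 18.6 for all protein-coding genes, with a missing peak set to 100.

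Markers of the labelled cell type and of other testis cells were read in the same way. Within 1 kb, 10 of 10 spermatogonial genes, 9 of 10 Sertoli genes and 4 of 8 Leydig genes had a peak in all 6 libraries. So had 4 of 6 endothelial genes, 1 of 6 macrophage genes and 3 of 12 genes of other organs. The share over all protein-coding genes was 68.2%. The median ranks within 1 kb of the spermatogonial and Sertoli lists were 18.8 and 18.7. Within 3 kb, 4 of 6 macrophage genes and 6 of 12 genes of other organs had a peak in all 6 libraries. The other lists had 10 of 10 spermatogonial, 9 of 10 Sertoli, 7 of 8 Leydig and 4 of 6 endothelial genes within 3 kb. Over all protein-coding genes the share within 3 kb was 74.0%. No peak within 3 kb in any library was found for 1 Sertoli gene, Rhox5, and 2 macrophage genes, Ptprc and Adgre1. The same held for 3 genes of other organs, among them Alb and Krt5. Per library, the Sertoli count was 9 throughout, the Leydig count was 5, 6 and 6 in S7KO and 6, 5 and 6 in WT, and the endothelial count was 4, 5 and 5 in S7KO and 4 in each WT library. The part that somatic cells had in the peaks of the 10 genes was not tested.

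**Figure D5:**
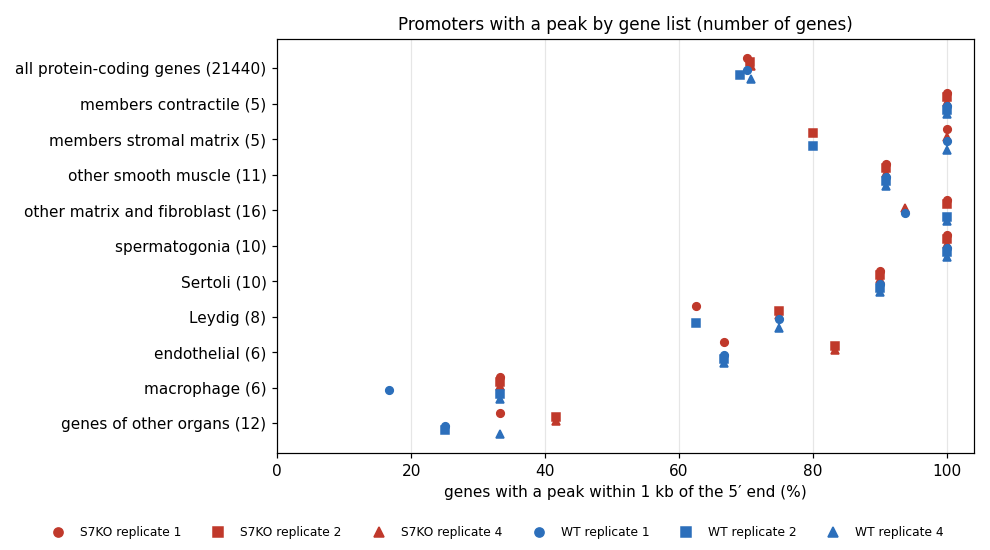
Percent of the genes of each list with a peak within 1 kb of the 5′ end, for each of the 3 S7KO (red) and 3 WT (blue) libraries, with the number of genes in parentheses. The contractile, matrix, spermatogonial and Sertoli lists lie at 80% or above in every library, while the macrophage list and the genes of other organs lie lowest.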

How the data were processed

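ATAC-seq peak lists of 3 S7KO and 3 WT libraries were analysed. According to the study's methods, reads were trimmed with Trim Galore 0.6.6 and aligned to mm10 with Bowtie2 2.4.4.1. Reads were filtered by mapping quality, duplicates and mitochondrial reads were removed, Tn5 insertions were shifted, and fragments were filtered by size. The results of the paper describe the profiles used for peak calling as nucleosome-free. MACS2 2.2.5 was run in broad mode with a cutoff of 0.1, giving 1 deposited list per library. The deposited columns hold a score, a fold enrichment, and the −log10 p-value and −log10 q-value of each peak. These were made by the authors from the reads, and read counts were not used here, so no count model could be fitted.

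Gene positions came from RefSeq on GRCm38.p6, the build of the files, and strand from the RefSeq promoter table or, by symbol, from GENCODE; it was found for 32819 of 34614 genes, and the other genes were left out. An overlap of 1 bp counted. Ranks were computed per list, libraries were compared by exact two-sided permutation over 20 assignments, and p-values were adjusted by Benjamini-Hochberg over 4 measures. The background coverage was solved from fold and p of peaks under 300 bp, at the 1st percentile, assuming a Poisson model with a pseudocount of 1. Python 3.11.15, pandas 2.3.3 and scipy 1.17.1 were used, and overlap, merging, permutation and the background solution were checked on simulated data.

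The genes named are the 10 members, genes whose 5′ end lies within 10 kb of a member, and list genes with a peak in no library or the best ranks; genes whose bodies hold a region (Stambpl1, Pcsk7) and the genes of the last section were named after their values were seen, and 1 list gene is not reported here by name. Members and lists were chosen with earlier results of these data known, so no list was tested against other genes, and the p-values compare genotypes over libraries only. Replicate numbers are those of the sample titles; the library names in the labels number the samples differently. The alternatives were lists of equal length, a −log10 q of at least 3, a 1 kb promoter, no flank, replicates 1 and 4 only, each library left out, and a replicate block. The study names 3 biological replicates, but whether each ATAC library came from a separate animal is not given in the sources used here. The p-values therefore compare these libraries, and how far they extend to other animals is unknown. The authors' differential accessibility analysis was not repeated.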

Additional observations from a re-analysis of the deposited data

How the results depend on the processing

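The sign of the difference in window length covered held under every alternative (lowest 0.242, with replicates 1 and 4 only), and those of the other 3 measures did not all hold. Of 44 alternative values of the 4 differences, 30 kept their sign, 10 turned in sign and 4 moved to 0. No exact permutation p was below 0.1, but 3 libraries against 3 cannot give a lower one. With lists of equal length, S7KO minus WT was -0.333 genes with a promoter peak, -1 peak, 0.460 percentage points of window length (exact permutation p = 0.1) and 0.134 in median rank. With a −log10 q of at least 3 the first was -0.333. With replicates 1 and 4 only, the differences were 0 genes, -2.5 peaks and 0.665 in rank, and 4 promoters had ranks that did not overlap, as had 24.7% of all promoters. A 1 kb promoter gave a difference of 0 genes, and windows without flanks gave -1 peak. Leaving out each library in turn gave 0 to 0.5 genes, -2.17 to 3.33 peaks, 0.332 to 0.952 percentage points of window length (the highest without WT replicate 4, exact permutation p = 0.1), -2.81 to -0.150 in rank, 0 regions particular to either genotype, and 2 promoters without overlap.

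With the replicate block the differences were 0.333 genes, 0.333 peaks, 0.579 percentage points and -1.43 in rank, as without it, with exact sign-flip p of 0.5 to 1 where 0.25 is the smallest possible. The deviations of same-numbered libraries correlated at 0.204, -0.0188 and 0.330 over 15867 promoters for replicates 1, 2 and 4, so not every pair of same-numbered libraries deviated together. The block rests on the numbers in the sample titles, which differ from those in the library names. The lists give no read counts, so what depth allows for weak peaks, such as those at Lum, cannot be stated.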

Other observations

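Among the smooth muscle genes, Myocd, the gene of myocardin, had a median promoter rank of 12.1 with a peak over its 5′ end in all 6 libraries. Srf, the gene of serum response factor, had a rank of 6.22 within 3 kb and no peak within 1 kb of the annotated 5′ end in any library. Both were chosen after their values were seen.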
